A study of Mus musculus with 9 samples.

Results

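Glucose uptake and the glycolytic pathway were followed through 10 genes that were taken as a fixed list by role: the transporters Slc2a1 and Slc2a3, the hexokinases Hk1 and Hk2, the phosphofructokinases Pfkl and Pfkp, and Aldoa, Pgk1, Pgam1 and Ldha. They are 10 of the 18193 genes that had a probe set of a single symbol on the array. All 10 were among the 10916 genes whose mean over the arrays passed the filter on low values. The arrays held RNA of interferon-producing killer dendritic cells (IKDC), natural killer (NK) cells and conventional dendritic cells (CDC), each cell-sorted fresh from naive BALB/c mice of 6 to 8 weeks. Spleen gave 2 arrays for each cell type, and lymph node gave 1 array for each. The labels name no allele, agent or stimulus for any group, and they give neither the sort gates nor the number of mice behind an array.

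Glycolysis breaks glucose down to pyruvate in the cytosol. Glucose enters through facilitative transporters, is trapped by hexokinase as glucose 6-phosphate, and is committed to the pathway by phosphofructokinase. Aldolase, phosphoglycerate kinase and phosphoglycerate mutase act further down, and lactate dehydrogenase turns pyruvate into lactate, which restores the NAD+ that the pathway needs. In immune cells the pathway is known for the increase that follows activation, in NK cells after cytokine stimulation and in dendritic cells after microbial stimulation. Several of its genes are textbook targets of the transcription factors HIF-1 and Myc.

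The 9 arrays had been scaled to a common brightness, with a trimmed mean of 150.0 intensity units on each and medians between 23.4 and 41.3. Levels are given below as normalized log2 intensities, and differences as log2 differences with the standard error (SE) from limma, fitted over all 10916 genes. A gene was called at a Benjamini-Hochberg adjusted p under 0.05. A probe set has its own brightness, so that levels are compared between arrays and not between genes. The sorted populations carried their markers: the mean level of 8 NK markers was 11.14 to 12.04 on the IKDC and NK arrays, against 6.12 to 7.07 on the CDC arrays. The mean level of 8 CDC markers was 5.62 to 7.71 on the IKDC and NK arrays, against 10.16 to 10.63 on the CDC arrays. Among these, Itgax and H2-Aa did not follow the mean: on the spleen IKDC arrays Itgax was at 11.03 and 11.24 and H2-Aa at 12.01 and 10.90. Spleen NK array 1 had them at 11.32 and 10.89, near the IKDC arrays, whereas spleen NK array 2 had them at 7.27 and 6.62. In lymph node they were at 10.88 and 11.90 in IKDC, 8.19 and 9.60 in NK, and 11.40 and 12.00 in CDC. Flt3 and Cd209a also departed from the mean on the lymph node IKDC array, at 8.69 and 8.53. They were at 5.77 and 5.47 in lymph node NK and at 10.85 and 9.34 in lymph node CDC. The lymph node IKDC array stood apart in 5 plasmacytoid dendritic cell markers, with a mean level of 10.83, against 5.95 to 8.64 on the other arrays. The mean level of 5 T cell markers was 7.72 on the lymph node IKDC array and 7.36 on the lymph node NK array, against 5.31 on the lymph node CDC array, and 4.90 to 6.16 in spleen. The markers behind the mean differed between these arrays. Lymph node IKDC had Cd4 at 9.30, Cd8b1 at 8.78, Cd3g at 8.27, Cd3d at 8.07 and Cd3e at 4.19. Lymph node NK had them at 6.03, 4.51, 9.31, 8.81 and 8.15. Cd4 was also at 8.81 and 9.90 on the spleen CDC arrays and at 8.02 on the lymph node CDC array. A mean level of 6 macrophage and monocyte markers lay between 6.18 and 9.09 on the IKDC and NK arrays, against 10.05 to 10.96 on the CDC arrays. Of these, C1qa did not follow the mean in spleen, at 6.16 and 7.34 in IKDC, 3.31 and 5.82 in NK, and 4.88 and 4.86 in CDC. The 2 spleen NK arrays lay far apart in Lyz1, at 6.70 and 11.37. Spleen arrays 1 had Xist levels of 6.02 to 6.36 and Eif2s3y levels of 8.84 to 9.40. Spleen arrays 2 and the lymph node arrays had Xist at 11.43 to 12.49 and Eif2s3y at or below 4.28. These genes mark sex, Xist being high in female cells and Eif2s3y lying on the Y chromosome. Spleen arrays 1 thus read as male, and the other arrays as female. The actin 3′ to 5′ signal ratio, a sign of RNA quality, was higher on array 1 than on array 2 in spleen IKDC (3.23 and 1.24), spleen NK (2.35 and 1.62) and spleen CDC (1.69 and 1.11). The Gapdh 3′ to 5′ ratio was higher on array 1 in spleen NK (6.15 and 4.12) and spleen CDC (4.47 and 3.28), but not in spleen IKDC (3.67 and 4.19). The part of these differences between arrays in the results below was not tested.

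Against CDC, 2 of the 10 genes were called in each comparison, 1 higher and 1 lower. Hk2 was the lower one throughout, Pfkp was the higher one in spleen and Slc2a3 the higher one in lymph node. In spleen IKDC against spleen CDC, 1 of 10 was higher, where 4.75% of all genes tested were, and 1 of 10 was lower, where 5.6% were (10.3% in either direction). In spleen NK against spleen CDC the shares of all genes were 6.54% higher and 6.98% lower (13.5%). In lymph node IKDC against lymph node CDC they were 2.09% higher and 1.89% lower (3.98%), and in lymph node NK against lymph node CDC 2.93% higher and 3.23% lower (6.17%). The median difference of the 10 genes was 0.36 for spleen IKDC and 0.17 for spleen NK against CDC, beside 0.04 and 0.06 over all genes tested. In lymph node it was 0.07 for IKDC and 0.07 for NK, beside 0.06 and 0.02 over all genes. IKDC and NK were set against the same CDC arrays, so that their differences are not independent of each other.

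Of the 2 hexokinases, Hk2 was called and Hk1 was not. Hk2, the inducible hexokinase that can bind mitochondria, was lower in IKDC and in NK than in CDC in both organs. On the lymph node arrays its level was 6.60 in IKDC, 7.27 in NK and 9.34 in CDC. It was 7.51 and 7.39 on the spleen IKDC arrays, 6.89 and 7.44 on the spleen NK arrays, and 9.26 and 9.47 on the spleen CDC arrays. The 3 CDC arrays were thus all above the 6 IKDC and NK arrays, which overlapped one another. In spleen the difference from CDC was -1.91 ± 0.29 for IKDC (SE; adjusted p = 0.00978), a 3.76-fold lower level, and -2.20 ± 0.29 for NK (SE; adjusted p = 0.0047), a 4.59-fold lower level. In lymph node it was -2.75 ± 0.41 for IKDC (SE; adjusted p = 0.0252) and -2.07 ± 0.41 for NK (SE; adjusted p = 0.0389), which are 6.72-fold and 4.20-fold lower levels. Without CDC array 1 or 2, which leaves 1 spleen CDC array, the adjusted p for spleen IKDC was 0.0633 and 0.101, and without CDC array 2 that for spleen NK was 0.0559. The lymph node calls were lost without NK array 1 or 2 or CDC array 1 or 2 of the spleen, with an adjusted p of 0.0511 to 0.0734 for IKDC and 0.0668 to 0.100 for NK. The lymph node NK call was also lost with the values as deposited (adjusted p = 0.0635), after the 75th percentile shift (0.0537) and with no filter (0.0599). In bulk RNA of a sorted population, fewer cells that carry a transcript and less of it per cell cannot be told apart.

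Hk1, the broadly expressed hexokinase, did not pass the test in any comparison of the fit used here. Its lymph node level was 9.24 in IKDC, 9.82 in NK and 9.14 in CDC. In spleen it was 9.78 and 8.24 in IKDC, 10.26 and 9.57 in NK, and 8.49 and 8.14 in CDC. Both spleen NK arrays lay above both spleen CDC arrays, while the second spleen IKDC array fell between the 2 CDC arrays. The spleen difference of NK from CDC was 1.60 ± 0.53 (SE; adjusted p = 0.109), and that of IKDC from CDC was 0.70 ± 0.53 (SE; adjusted p = 0.507). Without spleen IKDC array 1 or 2 the NK difference was called (adjusted p = 0.0154 and 0.0159), as it was with the array number as a block (0.0128), with the mean of probe sets (0.0191) and in the additive model of cell type and organ (0.0467).

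Pfkp, the platelet-type phosphofructokinase, was higher in spleen IKDC and spleen NK than in spleen CDC. On the lymph node arrays its level was 10.04 in IKDC, 10.34 in NK and 9.94 in CDC. It was 10.57 and 11.29 on the spleen IKDC arrays, 10.98 and 10.85 on the spleen NK arrays, and 9.25 and 9.28 on the spleen CDC arrays. All 4 spleen IKDC and NK arrays lay above both CDC arrays. The difference was 1.67 ± 0.29 for IKDC (SE; adjusted p = 0.0158) and 1.65 ± 0.29 for NK (SE; adjusted p = 0.0134), which are 3.17-fold and 3.13-fold higher levels. Neither lymph node difference from CDC passed the test (0.10 ± 0.41 for IKDC and 0.40 ± 0.41 for NK, SE). The test of whether the lymph node difference departs from the spleen difference gave -1.56 ± 0.50 for IKDC (SE; unadjusted p = 0.0188, adjusted p = 0.726) and -1.25 ± 0.50 for NK (SE; unadjusted p = 0.0447, adjusted p = 0.913). Platelet markers were high on 1 array, the second spleen NK array. Their mean level over 3 markers was 8.67 there, against 5.31 to 6.25 on the others, and Pfkp on that array was 10.85. The part of platelets in the levels of Pfkp was not tested. Without spleen CDC array 1 or 2 the adjusted p was 0.103 and 0.115 for IKDC and 0.0857 and 0.0972 for NK, and without spleen NK array 1 or 2 it was 0.100 and 0.0844 for NK. The other 2 probe sets of Pfkp were not called. In spleen the brighter of them gave 0.17 for IKDC and 0.45 for NK, and the dimmer gave 1.15 for IKDC and 1.05 for NK. In lymph node the brighter gave 0.35 for IKDC and 0.61 for NK, and the dimmer gave 1.15 and 1.23. A smaller difference from CDC in lymph node than in spleen was thus seen only on the probe set used. The mean of the Pfkp probe sets gave 0.99 for spleen IKDC (adjusted p = 0.0698) and 1.05 for spleen NK (adjusted p = 0.0509).

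Pfkl, the liver-type phosphofructokinase, was not called in any comparison. In lymph node it was at 9.57 in IKDC, 9.07 in NK and 9.17 in CDC. In spleen it was at 9.93 and 9.72 in IKDC, 9.09 and 9.77 in NK, and 9.79 and 9.30 in CDC, where the groups overlapped.

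**Figure D1:**
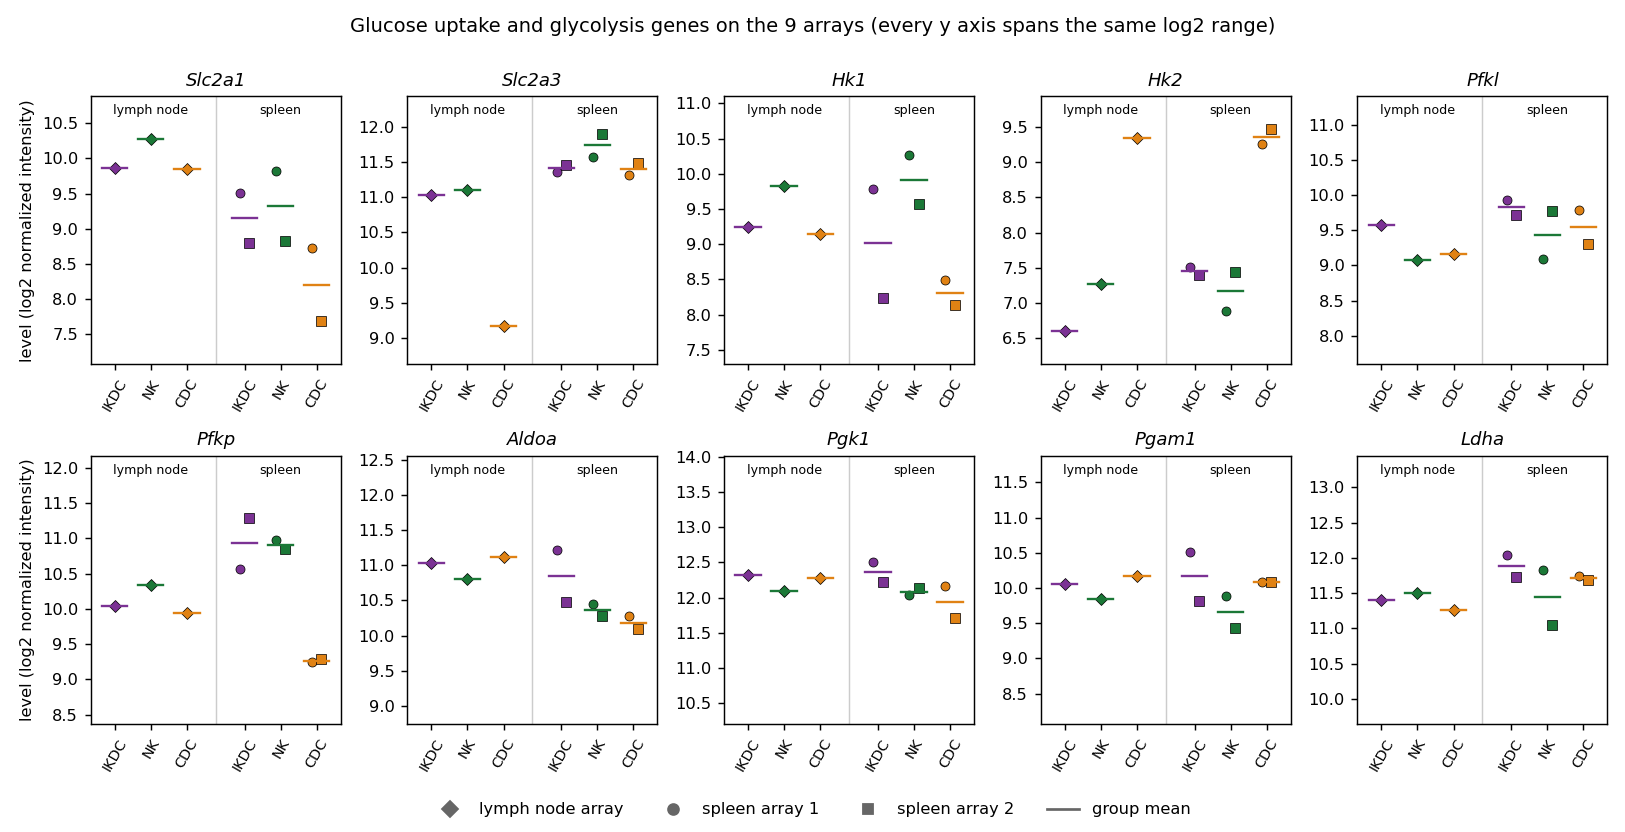
Normalized log2 intensity of each of the 10 genes on each of the 9 arrays, 1 panel per gene, with lymph node and spleen side by side and IKDC, NK and CDC from left to right; each point is 1 array and bars mark group means. Hk2 lies at 9.26 to 9.47 on the 3 CDC arrays and at 6.60 to 7.51 on the others, and Slc2a3 is at 9.17 on the lymph node CDC array and at 11.04 to 11.89 elsewhere.

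The 2 glucose transporters differed in where they varied. Slc2a3, a high-affinity transporter, stood in lymph node at 11.04 in IKDC and 11.10 in NK, against 9.17 in CDC. In spleen it was at 11.36 and 11.46 in IKDC, 11.57 and 11.89 in NK, and 11.31 and 11.48 in CDC. The lymph node CDC array was thus the lowest of the 9, below every other array. Within lymph node, Slc2a3 was higher in IKDC than in CDC by 1.87 ± 0.31 (SE; adjusted p = 0.0288), a 3.66-fold difference, and higher in NK than in CDC by 1.94 ± 0.31 (SE; adjusted p = 0.0191), a 3.83-fold difference. Both rest on the same single CDC array. In spleen the corresponding differences were 0.01 ± 0.22 and 0.34 ± 0.22 (SE). The difference of lymph node CDC from spleen CDC was -2.23 ± 0.26 (SE; unadjusted p = 0.000104), with an adjusted p of 0.0754 (0.016 with the array number as a block and 0.0457 with an offset of 50). The test of the organ difference itself gave 1.86 ± 0.37 for IKDC minus CDC (SE; unadjusted p = 0.00206, adjusted p = 0.405) and 1.60 ± 0.37 for NK minus CDC (SE; unadjusted p = 0.00442, adjusted p = 0.701). Of the 4 Slc2a3 probe sets, 2 were tested, and both are of a type that may bind related transcripts. The others were below the filter, at mean levels of 4.18 and 3.45 over the arrays. On neither of these was the lymph node CDC array the lowest, and both enter the mean of probe sets given below. The second Slc2a3 probe set tested had the same array lowest as the first. It gave 10.13 on the lymph node IKDC array, 10.22 on the NK array and 8.32 on the CDC array. It was called for NK (adjusted p = 0.0384) and not for IKDC (adjusted p = 0.0573). Without spleen NK array 1 or 2 or spleen CDC array 1 or 2, the call for IKDC was lost (adjusted p = 0.0712 to 0.0789), and without NK array 2, CDC array 1 or CDC array 2 so was the call for NK (adjusted p = 0.0505 to 0.0558). Over all alternatives the call for IKDC was kept in 7 of 16 and that for NK in 12 of 17. The mean of probe sets gave 1.10 for IKDC (adjusted p = 0.439) and 0.95 for NK (adjusted p = 0.456), and the additive model, which fits 1 difference for both organs, gave 0.63 (adjusted p = 0.274) and 0.87 (adjusted p = 0.117).

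Slc2a1, the transporter of basal glucose uptake in many cell types, did not pass the test in any comparison of the fit used here. Its lymph node level was 9.87 in IKDC, 10.27 in NK and 9.85 in CDC. In spleen it was 9.51 and 8.79 in IKDC, 9.81 and 8.82 in NK, and 8.72 and 7.69 in CDC. Every spleen IKDC and NK array lay above both spleen CDC arrays, but array 1 exceeded array 2 in each cell type. The spleen differences from CDC were 0.95 ± 0.50 for IKDC (SE; adjusted p = 0.328) and 1.11 ± 0.50 for NK (SE; adjusted p = 0.224). Lymph node CDC differed from spleen CDC by 1.64 ± 0.61 (SE; unadjusted p = 0.0333, adjusted p = 0.348). With the array number as a block these differences were called, with an adjusted p of 0.0251 for IKDC, 0.0116 for NK and 0.0391 between organs in CDC. The other probe sets of Slc2a1 did not repeat the difference between organs in CDC. The brighter of them gave 0.12 for it, with spleen differences from CDC of 0.54 for IKDC and 0.94 for NK. The dimmer gave -0.39, 0.32 and 0.60. On the dimmer, array 2 exceeded array 1 in spleen IKDC (8.44 and 7.61), NK (8.55 and 8.07) and CDC (7.97 and 7.43).

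None of the 4 genes of the lower pathway was called in any comparison. Aldoa, the aldolase of muscle and most other tissues, was at 11.03 in IKDC, 10.81 in NK and 11.12 in CDC on the lymph node arrays. In spleen, Aldoa was at 11.21 and 10.48 in IKDC, 10.45 and 10.28 in NK, and 10.28 and 10.09 in CDC. Its spleen IKDC arrays lay above the others of that organ, by 0.66 ± 0.29 over CDC (SE; adjusted p = 0.245), and its 3 lymph node arrays exceeded every spleen array except the first IKDC array. The other probe sets of Aldoa gave -0.07 to 0.90 for spleen IKDC over CDC. On the probe set at -0.07, the second spleen IKDC array was the lowest of that organ (8.95).

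Pgk1, a phosphoglycerate kinase that makes ATP, was in lymph node at 12.32 in IKDC, 12.09 in NK and 12.28 in CDC. Its spleen levels were 12.51 and 12.23 in IKDC, 12.04 and 12.14 in NK, and 12.16 and 11.71 in CDC. Both spleen IKDC arrays were above the other spleen arrays, with a difference from CDC of 0.43 ± 0.23 (SE; adjusted p = 0.326). In spleen, the brighter of its other probe sets gave 0.30 for IKDC and -0.38 for NK over CDC, and the dimmer gave 0.87 and 0.03. In lymph node the probe set used gave 0.04 for IKDC and -0.19 for NK over CDC. The brighter of the others gave -0.35 and -0.65 there, and the dimmer gave -1.11 and -0.89. None of these was called. The probe sets used for Aldoa and Pgk1, every other probe set of Aldoa and the dimmest of Pgk1 are of a type that may bind related transcripts. Both genes have close relatives or pseudogenes.

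Pgam1, a phosphoglycerate mutase, was in lymph node at 10.05 in IKDC, 9.85 in NK and 10.17 in CDC. Its spleen levels were 10.52 and 9.82 in IKDC, 9.89 and 9.43 in NK, and 10.08 and 10.09 in CDC. The spleen CDC arrays lay between the 2 IKDC arrays and above both NK arrays. Ldha, the main lactate dehydrogenase subunit of glycolytic cells, was in lymph node at 11.40 in IKDC, 11.50 in NK and 11.26 in CDC. Its spleen levels were 12.04 and 11.72 in IKDC, 11.83 and 11.05 in NK, and 11.75 and 11.69 in CDC, so that the cell types overlapped there.

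**Figure D2:**
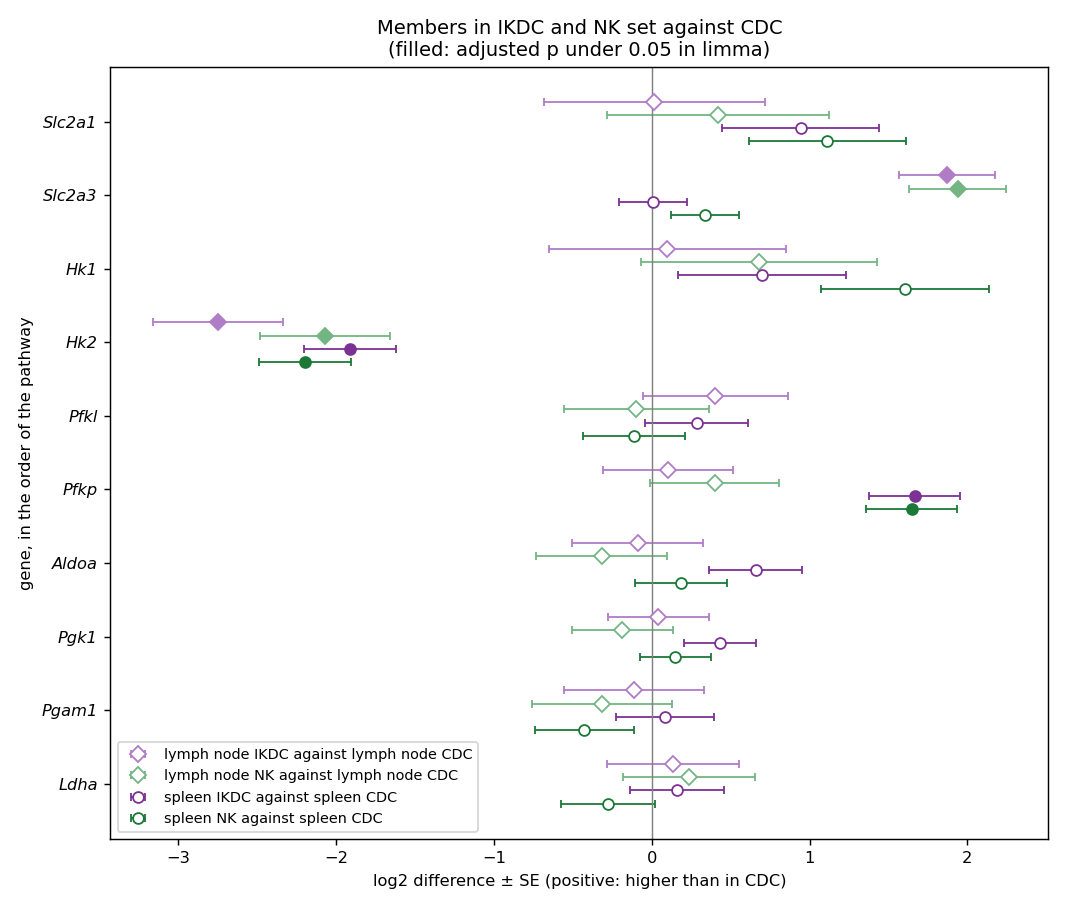
Log2 difference from CDC of the same organ (x axis) for each of the 10 genes, for IKDC and NK in lymph node (diamonds) and spleen (circles), with the SE from limma as bars; filled points passed the adjusted p of 0.05. Hk2 is lower in all 4 comparisons (-2.75 to -1.91), Slc2a3 is higher in lymph node (1.87 and 1.94) and Pfkp in spleen (1.67 and 1.65).

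IKDC and NK were not told apart by any of the 10 genes. In spleen, limma called 0 of the 10, where 0% of all genes were called, and the 10 genes gave 0 unadjusted p-values under 0.05, against 598 over all genes tested. The smallest unadjusted p of the 10 was 0.135. In lymph node it called 0 of 10, with 0.055% of all genes called. With 2 arrays per group in spleen and 1 in lymph node, these counts do not show that the levels are alike. Spleen NK array 1, which carried Itgax and H2-Aa near the IKDC level, is among the arrays behind them. Without it the count in spleen was again 0 of 10, and Hk2 was the 1 gene called for spleen NK against CDC.

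Between organs, limma called 0 of the 10 genes in each cell type. By the sex markers given above, these comparisons set female lymph node arrays against spleen arrays of both sexes. In CDC, 0.0275% of all genes were called, and 3 of the 10 had an unadjusted p under 0.05, namely Slc2a1, Slc2a3 and Aldoa, beside 1387 of the 10916 genes tested. In NK, 0% of all genes were called, and 0 of the 10 had an unadjusted p under 0.05, beside 628 of all genes. In IKDC, 0% of all genes were called, and 1 of the 10 had an unadjusted p under 0.05, namely Pfkp, with a difference of lymph node from spleen of -0.89 ± 0.35 (SE; adjusted p = 0.709), beside 744 of all genes. The tests of whether a difference between cell types departs between organs called 0 of the 10 and 0% of all genes. Pfkp and Slc2a3 were the 2 of the 10 with an unadjusted p under 0.05 for IKDC minus CDC and for NK minus CDC, against 615 and 583 of all genes.

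The differences of Hk2 and Pfkp held their sign within each array number, which the order of the spleen arrays given above already fixes. For Hk2, IKDC minus CDC was -1.74 between spleen arrays 1 and -2.08 between spleen arrays 2, and NK minus CDC was -2.37 and -2.03. For Pfkp, IKDC minus CDC was 1.32 and 2.01, and NK minus CDC was 1.73 and 1.57. Slc2a1 gave 0.79 and 1.10 for IKDC and 1.09 and 1.13 for NK, so that array 1 and array 2 differed less in this comparison than in level. Of the 10 genes, 4 were higher on array 1 than on array 2 in all 3 cell types (Slc2a1, Hk1, Aldoa and Ldha), a share of 40% against 23.2% of all genes tested. Of 10 proliferation genes, 9 showed that order, with median gaps of 2.32 in IKDC, 1.61 in NK and 1.59 in CDC. The 10 glycolytic genes had median gaps of 0.30, 0.15 and 0.12. The proliferation gene Mki67 was at 11.91 and 9.06 in spleen IKDC, 11.06 and 8.71 in spleen NK and 10.97 and 9.35 in spleen CDC, and limma called 0 of the 10 proliferation genes against CDC. The actin 3′ to 5′ ratio moved with the array number too, at 3.23 and 1.24 in IKDC, 2.35 and 1.62 in NK and 1.69 and 1.11 in CDC. The Gapdh 3′ to 5′ ratio did so in NK and CDC but not in IKDC (3.67 and 4.19). The part of proliferation, RNA quality or sex in the gaps of the 10 genes was not tested.

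The promoters of 3 of the genes are shown because Hk2 and Pfkp parted in opposite directions and Ldha held the most matches to the letters ACGTG, which binding sequences of HIF-1 and Myc can contain. The windows are the 250 bases before the RefSeq start on build GRCm38.p6: chr6:82774455-82774704 for Hk2 (minus strand), chr13:6648772-6649021 for Pfkp (minus strand) and chr7:46845554-46845803 for Ldha (plus strand). They are written 5′ to 3′ on the gene's strand, with ACGTG read on either strand in capitals.
Hk2: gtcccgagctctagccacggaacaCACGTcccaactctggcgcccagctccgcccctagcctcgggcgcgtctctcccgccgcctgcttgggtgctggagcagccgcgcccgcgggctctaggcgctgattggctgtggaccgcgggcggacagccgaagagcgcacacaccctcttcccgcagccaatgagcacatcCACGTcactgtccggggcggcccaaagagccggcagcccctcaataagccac
Pfkp: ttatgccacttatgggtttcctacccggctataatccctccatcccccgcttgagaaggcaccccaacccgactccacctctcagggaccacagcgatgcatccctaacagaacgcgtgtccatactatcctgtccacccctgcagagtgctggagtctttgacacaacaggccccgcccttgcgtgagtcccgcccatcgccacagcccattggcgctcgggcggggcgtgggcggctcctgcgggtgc
Ldha: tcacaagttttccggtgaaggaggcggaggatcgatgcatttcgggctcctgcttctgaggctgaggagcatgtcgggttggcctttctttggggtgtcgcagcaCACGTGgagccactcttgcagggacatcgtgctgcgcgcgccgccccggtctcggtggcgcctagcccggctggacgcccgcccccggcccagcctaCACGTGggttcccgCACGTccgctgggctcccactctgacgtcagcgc

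ACGTG was found 2 times in the Hk2 window, 0 times in the Pfkp window and 5 times in the Ldha window shown. In that Ldha window, 4 of the 5 come from 2 copies of the palindrome CACGTG, which holds ACGTG on both strands. Another RefSeq start of Ldha had a window, chr7:46846832-46847081, with 0 matches. Of the 9 genes with a RefSeq promoter in the table used, 6 held ACGTG in at least 1 window: Slc2a1, Hk2, Aldoa, Pgk1, Pgam1 and Ldha. Among all 27025 genes of the table, 18.5% did. The windows of Hk1, Pfkl and Pfkp held none, and Slc2a3 was not matched. A match is a string of letters, and no binding was measured here. Strings other than ACGTG and CACGTG were not searched, so that a window without a match may still hold other binding sequences.

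Of the other glycolytic enzymes, 16 were listed, 11 had a probe set of a single symbol and 10 were tested. In each comparison with CDC 1 of these 10 was called, and it was lower. Over all genes tested, 3.98% to 13.5% were called in these comparisons, in either direction. Eno3, the enolase of muscle, was in lymph node at 7.19 in IKDC, 6.66 in NK and 9.42 in CDC. In spleen it was at 7.71 and 7.19 in IKDC, 7.35 and 6.77 in NK, and 9.36 and 9.87 in CDC. Its spleen difference from CDC was -2.17 ± 0.35 for IKDC (SE; adjusted p = 0.0122) and -2.56 ± 0.35 for NK (SE; adjusted p = 0.00527). In lymph node Eno3 was called for NK (-2.76 ± 0.50, SE; adjusted p = 0.0291). Hk3, a hexokinase of myeloid cells, was called in lymph node IKDC against CDC, at 6.84 against 9.64 (adjusted p = 0.0449). The mean level of the macrophage and monocyte markers was highest on the CDC arrays, as given above, though not every marker followed it. The part of such cells in the levels of Hk3 was not tested. The Hk3 probe set is also of a type that may bind related transcripts. The triose phosphate isomerase Tpi1 differed by 1.00 ± 0.36 between spleen IKDC and CDC (SE; adjusted p = 0.153) and the pyruvate kinase Pkm by -0.10. Gapdh, Gpi1 and Eno1 had no probe set of a single symbol outside the controls and were not analysed here.

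Aldoc, Eno2 and Ldhb, the aldolase and enolase of nervous tissue and the heart-type lactate dehydrogenase subunit, lay far apart on the 2 spleen IKDC arrays, and were picked out after their values were seen. Aldoc was at 9.79 and 5.93 in spleen IKDC, 7.54 and 5.69 in spleen NK, and 7.88 and 7.08 in spleen CDC. Eno2 was at 8.39 and 4.98 in spleen IKDC, 6.06 and 3.96 in spleen NK, and 5.11 and 4.42 in spleen CDC. Ldhb was at 9.08 and 6.74 in spleen IKDC, 7.65 and 7.55 in spleen NK, and 8.08 and 8.37 in spleen CDC. None of these 3 genes was called in a comparison with CDC. The actin 3′ to 5′ ratio was 3.23 on spleen IKDC array 1, the highest of the 9 arrays, and 1.24 on array 2. The Gapdh 3′ to 5′ ratio went the other way on these arrays, at 3.67 and 4.19, and was highest on spleen NK array 1 (6.15). The part of RNA quality in the gaps of Aldoc, Eno2 and Ldhb was not tested.

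**Figure D3:**
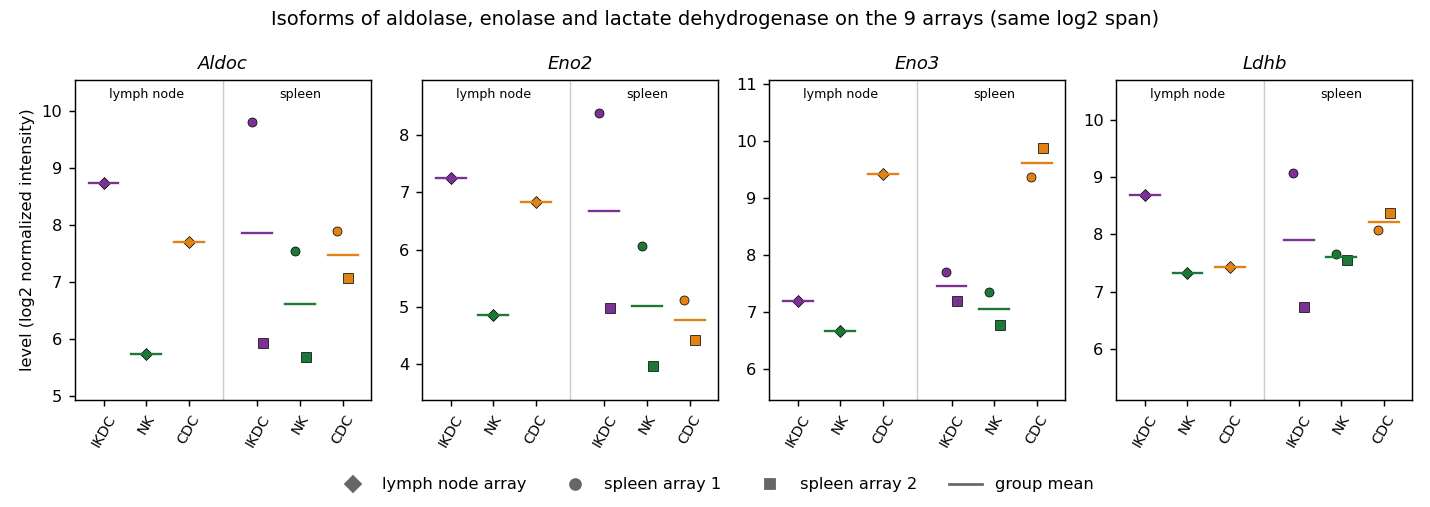
Normalized log2 intensity (y axis) of Aldoc, Eno2, Eno3 and Ldhb on the 9 arrays, with lymph node and spleen side by side and IKDC, NK and CDC from left to right; each point is 1 array and bars mark group means. Eno3 is above 9 on the 3 CDC arrays and below 8 on the others, while the 2 spleen IKDC arrays lie far apart for Aldoc (9.79 and 5.93), Eno2 (8.39 and 4.98) and Ldhb (9.08 and 6.74).

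Around the pathway, genes were called in both directions. The counts below stand beside 10.3% of all genes called in spleen IKDC and 13.5% in spleen NK against CDC, in either direction. Of 5 tested genes that make or remove the fructose bisphosphates around phosphofructokinase, 1 was lower in spleen IKDC and 2 in spleen NK than in CDC. Pfkfb4, which makes the activator of phosphofructokinase, was lower by 1.85 on the log2 scale in IKDC (adjusted p = 0.00849) and by 1.72 in NK (adjusted p = 0.00885). Pfkfb3, a second such enzyme, was lower in spleen NK (-1.30, adjusted p = 0.0491) and in lymph node NK (-2.16, adjusted p = 0.0487). Of 9 tested genes of lactate transport and pyruvate entry, 2 were higher in spleen IKDC and 1 was lower in spleen NK. Slc16a1, a lactate and pyruvate transporter, was at 7.08 and 7.50 in spleen IKDC, 6.47 and 6.45 in spleen NK, and 5.63 and 5.31 in spleen CDC, with a difference of 1.82 ± 0.32 for IKDC (SE; adjusted p = 0.0169). Pdha1, a subunit of pyruvate dehydrogenase, was higher in spleen IKDC (1.17, adjusted p = 0.0283), and Pdk1, a kinase that inhibits that enzyme, was lower in spleen NK (-1.51, adjusted p = 0.0202). The lactate exporter Slc16a3 was below the filter and was not tested. Of 6 pentose phosphate enzymes, 1 was lower in spleen IKDC and NK: Taldo1, a transaldolase, by 1.81 on the log2 scale (adjusted p = 0.00301) and by 1.78 (adjusted p = 0.0023). Taldo1 was also lower in lymph node NK than in lymph node CDC (-1.28, adjusted p = 0.049). The 4 other glucose transporters tested were not called in these comparisons.

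Of 19 tested regulators of glycolytic genes, 3 were higher in spleen IKDC, and 1 was higher and 2 lower in spleen NK than in CDC. Over all genes tested, 10.3% were called in spleen IKDC and 13.5% in spleen NK, in either direction, so that such counts do not set these lists apart. Hif1a, the oxygen-regulated subunit of HIF-1, differed by -0.02 in spleen IKDC and by -0.38 in spleen NK and was not called. Myc was higher in spleen IKDC by 1.56 ± 0.36 (SE; adjusted p = 0.0428), and its value in spleen NK was 1.21 (adjusted p = 0.0795). Epas1, the related HIF-2 subunit, was higher in spleen IKDC by 2.15 (adjusted p = 0.0355). Egln3, a hydroxylase that marks HIF subunits for decay, was at least 3.47-fold higher in spleen IKDC (adjusted p = 0.0117) and at least 2.93-fold higher in spleen NK (adjusted p = 0.015) than in CDC, where it lay below the filter level. Irf4 was at least 14.6-fold lower in spleen NK (adjusted p = 0.00497), and Srebf2 was lower there by 1.22 on the log2 scale (adjusted p = 0.0263). Of 12 tested hypoxia response genes outside glycolysis, 1 was higher and 1 lower in each spleen comparison. Bhlhe40, a transcription factor induced by low oxygen, was the higher one (1.11 in IKDC, adjusted p = 0.0296; 1.72 in NK, adjusted p = 0.00481). The carbonic anhydrase Car9 was the lower one (-1.60 in IKDC, adjusted p = 0.0283; -1.47 in NK, adjusted p = 0.0311). In lymph node, Vhl, which targets HIF subunits for decay, was lower than in CDC in IKDC (-1.73, adjusted p = 0.0449) and in NK (-1.83, adjusted p = 0.0294). Egln3 was at least 6.06-fold higher in lymph node NK (adjusted p = 0.0142), and Bhlhe40 (2.22, adjusted p = 0.0152) and the stress-induced Ddit4 (2.36, adjusted p = 0.038) were higher there as well. These calls set 1 lymph node array against 1 other.

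**Figure D4:**
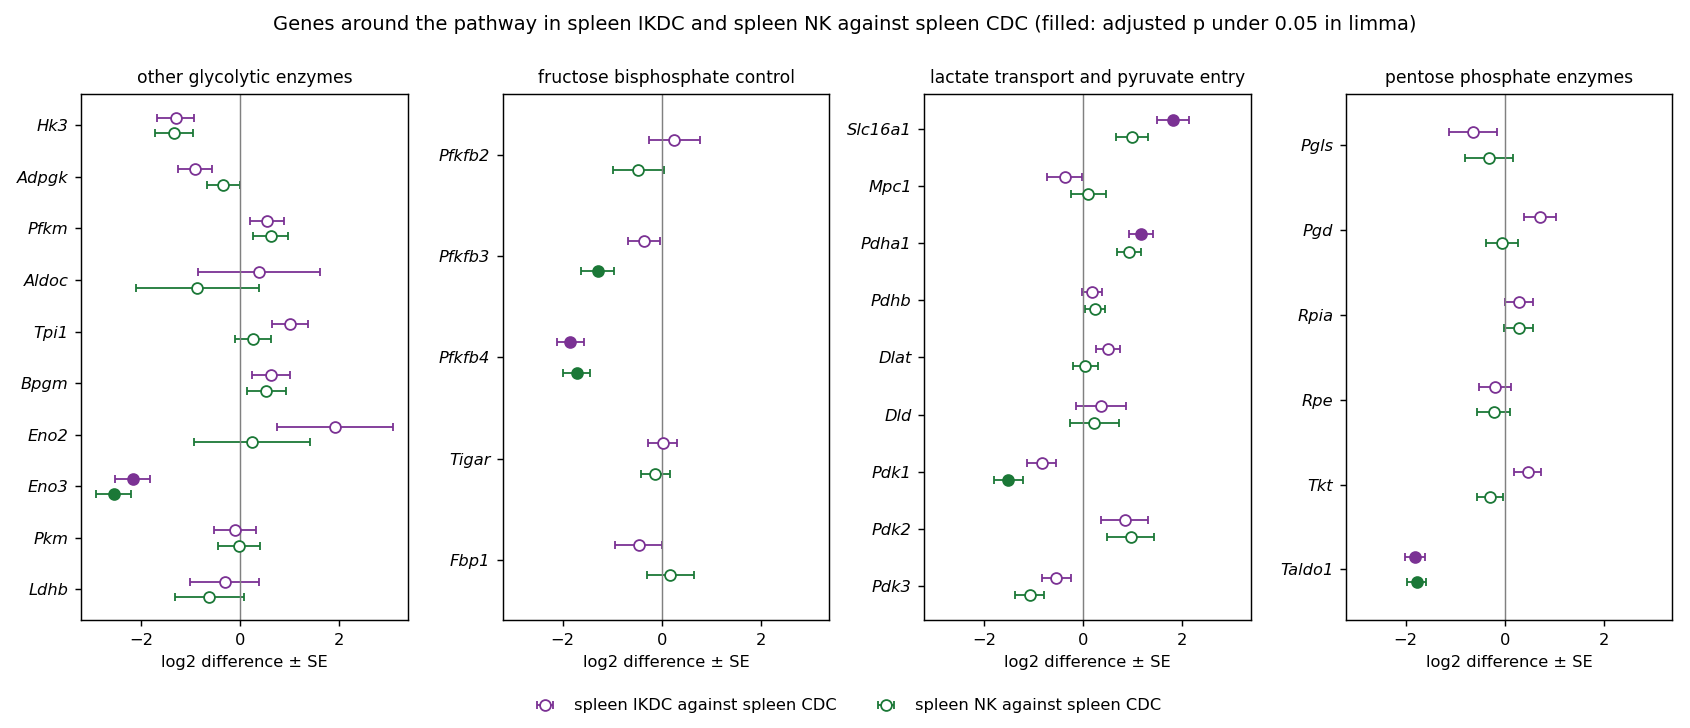
Log2 difference from spleen CDC (x axis, with the SE from limma as bars) of the tested genes of 4 lists, for spleen IKDC and spleen NK; filled points passed the adjusted p of 0.05. Eno3 (-2.17 and -2.56), Taldo1 (-1.81 and -1.78) and Pfkfb4 (-1.85 and -1.72) are lower in IKDC and NK, and Slc16a1 (1.82) is higher in IKDC.

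The 10 genes did not move as 1 block over the arrays. The mean of their standardised levels ran from 0.90 (spleen IKDC array 1) down to -0.62 (spleen CDC array 2). Correlated over the 9 arrays with the mean of the other 9 genes, Pgk1 had the highest Pearson r, at 0.73, and Hk2 the lowest, at -0.61. These values describe 9 arrays that fall into 6 groups and carry no test. The genes outside the lists most like the mean of the 10, by Pearson r over the 9 arrays, were 1110038B12Rik (0.97), Hpf1 (0.96), Bop1 (0.96), Noct (0.95) and Cdkl2 (0.94).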

How the data were processed

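RNA of 9 sorted samples was hybridised to Affymetrix arrays, with biotin-labelled cRNA made from 6 µg of total RNA, per the labels. The authors deposited 1 intensity per probe set, on a linear scale; the equal trimmed means show a scaling per array. The software that made them is not given in the sources used. Intensities were offset by 6.50, the 20th percentile of all values, log2 transformed and quantile normalized. The offset understates differences of dim genes. Of 45101 probe sets, 64 controls, 932 with several symbols and 9160 with none were left out, and each of 18193 genes took its brightest probe set. Genes at or above the 40th percentile (5.31) were tested with limma 3.58.1 in R 4.3.3 (lmFit, eBayes with trend) in 6 groups with 3 residual degrees of freedom, all from spleen pairs; the lymph node groups, of 1 array each, borrow that spread. P-values are two-sided and measure only the spread between these arrays, which the labels do not tie to separate animals and whose number limits the precision. Where a called gene's lower group lay below 5.31, its fold was taken against that level. Members, lists and the rule for named genes (all members, up to 4 called genes per list and a few fixed ones) were chosen with earlier results of these data known. The fit was tested on simulated data. The alternatives are listed in the closing section. Promoters came from RefSeq (GRCm38.p6). Python 3.11.15 drew the figures.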

Additional observations from a re-analysis of the deposited data

How the results depend on the processing

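The fit was repeated on the values as deposited, with a shift to the same 75th percentile, another offset (50) or none, other filters, the mean of all probe sets, each other tested probe set alone, no trend, the spleen arrays alone, an additive model, the replicate number as a block and without each spleen array in turn, and, added after seeing the data, without the lymph node IKDC array. Of 1647 member values under these alternatives, 1477 kept their side of the threshold with little change, 116 moved without a call, 41 lost and 13 gained a call, and 0 called values changed sign. For lymph node IKDC against lymph node CDC, 1 member instead of 2 was called after the 75th percentile shift, with no filter, with the mean of probe sets and without the trend. For lymph node NK against lymph node CDC, 1 instead of 2 was called with the values as deposited, the shift, no filter (Slc2a3 each time, with Hk2 lost) and the mean of probe sets (Hk2). In the additive model Slc2a3 lost both lymph node calls, Pfkp gained both (adjusted p = 0.0439 for IKDC and 0.027 for NK) and Hk1 gained that for NK (0.0467), which gave 3 for NK. For spleen IKDC against spleen CDC the mean of probe sets gave 1 instead of 2, and for spleen NK it lost Pfkp and gained Hk1. For lymph node CDC against spleen CDC an offset of 50 gave 1 instead of 0. Without 1 spleen array each, the counts ran from 0 to 2 in the lymph node comparisons with CDC, from 0 to 2 for spleen IKDC and from 0 to 3 for spleen NK against CDC. The cause was not tested, though leaving out an array also leaves 2 instead of 3 residual degrees of freedom.

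Replicate numbers are not tied to animals, sorts or days by the labels. The number also parts the spleen arrays by the sex markers Xist and Eif2s3y, as given above. Same-numbered arrays deviated alike from their group means (r across genes of 0.412 for NK and CDC, 0.529 for IKDC and CDC and 0.485 for IKDC and NK; genes are not independent replicates). With the number as a block, 4 members were called for spleen NK against CDC (Slc2a1, Hk1, Hk2 and Pfkp), 3 for spleen IKDC against CDC (Slc2a1 added) and 2 for lymph node CDC against spleen CDC (Slc2a1 and Slc2a3). Adjusted p-values of Slc2a1 were then 0.0251 for spleen IKDC and 0.0116 for spleen NK against CDC.

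The counts over all genes called moved too: for spleen IKDC against CDC 1129 became 1883 with the block and 1897 in the additive model, and ran from 360 to 1399 without 1 array. For spleen NK against CDC 1476 became 2318 and 2404, and ran from 515 to 1916. In lymph node, 434 for IKDC against CDC became 260 with no filter, 1041 with the block, 1897 in the additive model and 123 to 732 without 1 array, and 673 for NK against CDC became 1324 with the block, 2404 in the additive model and 328 to 1078 without 1 array. Between organs, 3 genes in CDC and 0 in IKDC became 173 and 126 with the block and 32 and 41 with an offset of 50.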
